A study of Homo sapiens with 12 samples.

Results

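The transcriptional difference between QRICH1 knockout and control HT29 cells was measured without added stress, in cells that had received only the solvent DMSO. The comparison took the 3 QRICH1 KO DMSO libraries and the 3 WT DMSO libraries by their sample titles, which is 6 of the 12 libraries in the series, and covered all 11323 genes that passed a filter on low counts. HT29 is a line from a human colorectal adenocarcinoma, and all groups were HT29 cells that express Cas9. QRICH1 KO cells carried a lentiviral guide RNA against QRICH1, WT cells carried a non-targeting guide, and so WT here means transduced, Cas9-expressing controls. DMSO was given for 14 h, and the remaining 6 libraries (QRICH1 KO Tm and WT Tm, 3 each) came from cells given tunicamycin (Tm) at 0.3 µg/ml for the same time. The cells were grown in DMEM with serum. The sources used here do not say how many guides were used, or whether a knockout line was 1 clone or a pool, so that the guide, the line and the genotype cannot be told apart in this comparison.

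QRICH1 encodes a nuclear protein named for its glutamine-rich stretch, and the series title places it in the control of proteostasis during stress of the endoplasmic reticulum (ER). When unfolded proteins build up in the ER, the sensors IRE1, PERK and ATF6 start the unfolded protein response: IRE1 splices XBP1 mRNA, ATF6 is cut to release a transcription factor, and PERK slows translation while it favours translation of ATF4, which in turn raises DDIT3 (CHOP) and genes of amino acid supply. Intestinal epithelial cells make large amounts of secreted and membrane protein and run this response at a low level even when unstressed. The DMSO comparison addresses what the QRICH1 guide changes before tunicamycin, which blocks N-linked glycosylation, is added.

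Total counts were 17861844, 14097141 and 14284543 in QRICH1 KO DMSO libraries 1 to 3 and 7529171, 15131238 and 12089615 in WT DMSO libraries 1 to 3, and gene levels are given as CPM scaled to the TMM-adjusted library size, except that the floors and marker levels of this paragraph are scaled to the total count. A gene without a count may have had up to 0.168 to 0.398 CPM in these libraries (3 counts, counting error only). QRICH1 KO DMSO library 3 stood apart from the rest in the number of genes detected. With every library thinned to 6856736 counts it had counts for 14342 genes, against 13147 and 13364 in the other QRICH1 KO DMSO libraries and 13069 to 13456 in WT DMSO. On the first principal component of the 6 libraries, which held 29.8% of the variance, it lay at 8.41, within the range of WT DMSO libraries 1 to 3 (-5.51, 20.13 and 22.93). QRICH1 KO DMSO libraries 1 and 2 lay at -29.73 and -16.24. On the second component (24.7%) WT DMSO library 1, which had the lowest total count of the 6, lay at -37.68. The other DMSO libraries lay between -1.14 and 11.13 there. The epithelial markers KRT8, KRT18, KRT19, EPCAM, CDH1 and VIL1 were abundant in all 6 libraries (KRT8 at 41408 to 58207 CPM, EPCAM at 1607 to 1753), whereas the intestinal markers CDX2 and CDH17 reached at most 1.61 and 1.32 CPM. Of 30 markers of non-epithelial cells, 5 passed the count filter and 3 (CD3E, TYROBP and HBA1) were at 0 in all 6 libraries. Their summed level was 2284 to 2643 CPM in QRICH1 KO and 2517 to 2573 in WT, nearly all of it from LYZ, which secretory epithelium also makes. Without LYZ the sum was 17.5 to 19.0 CPM in QRICH1 KO and 19.9 to 21 in WT. In bulk RNA, fewer cells with a transcript and less transcript per cell cannot be told apart.

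The targeted gene gave no call. QRICH1 (chr3:49029707-49094363, minus strand, hg38) had 23.3, 24.1 and 24.8 CPM in QRICH1 KO DMSO and 22.7, 31.1 and 35.0 CPM in WT DMSO. The QRICH1 KO values lay close together and within the range of the WT values, whose library 1 was below all 3 of them. The log2 fold change was -0.31 (SE 0.16, 95% interval -0.65 to 0.03, adjusted p = 0.577). A guide that shifts a reading frame need not lower the amount of mRNA, so these counts do not check the genotype labels.

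Few genes were called between the genotypes. Genes were called at an adjusted p under 0.05 in edgeR's quasi-likelihood test, with p-values adjusted by Benjamini-Hochberg over the whole table. On that rule 2 genes (0.0177%) were higher and 9 (0.0795%) were lower in QRICH1 KO, 11 in all (0.0971%). At an unadjusted p under 0.05 there were 591 higher (5.22%) and 436 lower (3.85%), 9.07% in all, and the libraries of the genotypes did not overlap in 838 genes that were higher (7.4%) and 690 that were lower (6.09%), 13.5% in all. The median log2 fold change of all genes was 0.004 and the median SE was 0.19. For 8872 genes (78.4%) the 95% interval lay within a 2-fold difference in either direction. The number called depended on the settings: without the filter on low counts 76 genes were higher and 62 lower, all of them among these 11323.

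**Figure D1:**
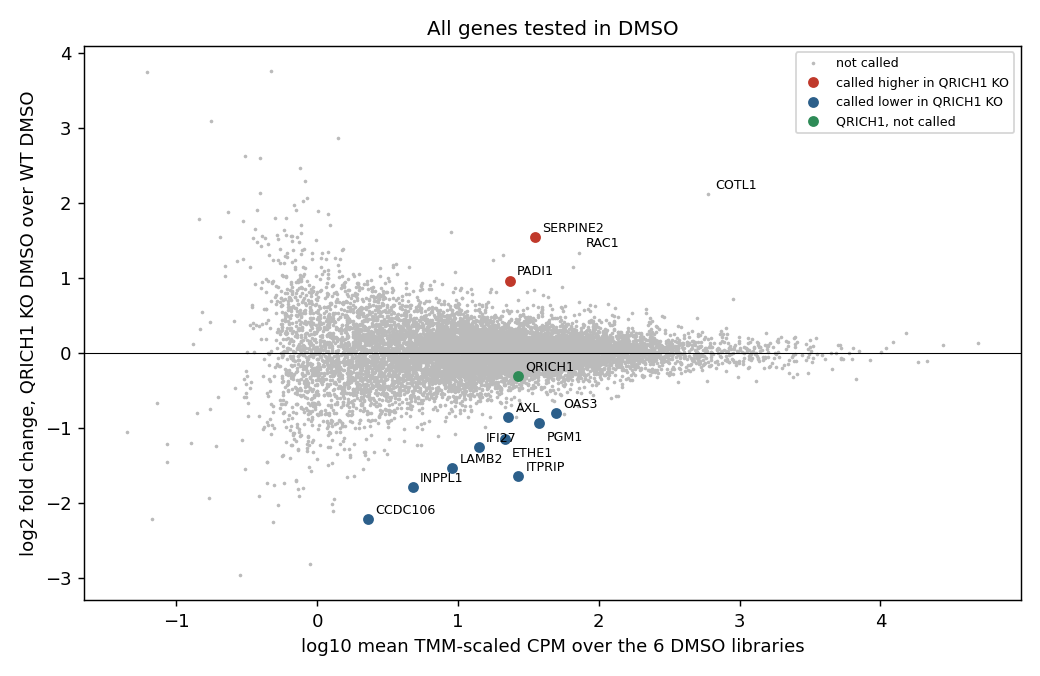
Each point is 1 of the genes tested, with the log10 of its mean TMM-scaled CPM over the 6 DMSO libraries on the x axis and its log2 fold change of QRICH1 KO DMSO over WT DMSO on the y axis. The 2 genes called higher (red) and 9 called lower (blue) lie at the edge of the cloud, QRICH1 (green, log2 -0.31) lies within it, and COTL1 and RAC1 are labelled as large differences that were not called.

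The clearest gain was in SERPINE2, a secreted inhibitor of serine proteases such as thrombin and urokinase. It had 53.3, 53.1 and 51.2 CPM in QRICH1 KO DMSO and 19.3, 18.6 and 16.4 CPM in WT DMSO. Every QRICH1 KO library was well above every WT library, and the means were 52.5 ± 1.14 CPM in QRICH1 KO DMSO and 18.1 ± 1.54 CPM in WT DMSO (SD, n = 3 each). SERPINE2 (chr2:223975112-224039319, minus strand) rose 2.91-fold (log2 1.54, SE 0.12, adjusted p = 4.42e-06). PADI1, a peptidylarginine deiminase, which turns arginine residues of proteins into citrulline, had 27.9, 29.3 and 34.8 CPM in QRICH1 KO DMSO and 16.1, 16 and 15.2 CPM in WT DMSO. The WT libraries lay within about 1 CPM of each other, and none reached the lowest QRICH1 KO library. PADI1 (chr1:17205126-17246005, plus strand) rose 1.95-fold (log2 0.96, SE 0.13, adjusted p = 0.00429). Neither gene shares exon bases with another annotated gene.

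The genes next in order of p among those higher in QRICH1 KO did not pass the adjustment. SLC2A1, the glucose transporter GLUT1, had 579, 591 and 574 CPM in QRICH1 KO DMSO and 428, 423 and 412 CPM in WT DMSO, with a log2 fold change of 0.47 and an adjusted p of 0.0776. Its genotypes did not overlap, and the spread within each was small beside the gap. The cytidine deaminase gene APOBEC3G had 14.6, 11.8 and 11.8 CPM in QRICH1 KO DMSO and 8.03, 4.14 and 6.33 CPM in WT DMSO (log2 1.09, adjusted p = 0.0776), and it was called in the same direction under Tm (log2 1.65, adjusted p = 0.00348). ZYX, the focal adhesion protein zyxin, had a log2 fold change of 0.74, the organic anion transporter gene SLCO4A1 one of 0.64 and the uridine phosphorylase gene UPP1 one of 0.84, each with an adjusted p of 0.0776. FKBP4, a cochaperone of HSP90, had 273, 271 and 233 CPM in QRICH1 KO DMSO and 145, 200 and 171 CPM in WT DMSO (log2 0.59, adjusted p = 0.0918). In none of the genes named so far in this paragraph did the libraries of the genotypes overlap, which was so for 7.4% of all genes with QRICH1 KO higher. SESN2 and RAC1 also belong in this order of p and are described below. The libraries of RAC1 (adjusted p = 0.0864) overlapped.

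Of the genes lower in QRICH1 KO, ITPRIP, whose product binds the inositol trisphosphate receptor of the ER membrane, had the smallest p. It had 11.5, 12.1 and 15.1 CPM in QRICH1 KO DMSO and 46.3, 38.1 and 37.1 CPM in WT DMSO. The lowest WT library was more than 2-fold above the highest QRICH1 KO library. ITPRIP (chr10:104309698-104338448, minus strand) was 3.12-fold lower (log2 -1.64, SE 0.15, adjusted p = 1.85e-05). Exons of an antisense transcript cover 3.35% of its exon bases, and since the library chemistry does not mark strand, reads there cannot be assigned. ETHE1, the mitochondrial persulfide dioxygenase of sulfide breakdown, had 13.6, 14.6 and 12.1 CPM in QRICH1 KO DMSO and 28.4, 28.0 and 32.6 CPM in WT DMSO. The libraries fell into separate ranges, and ETHE1 (chr19:43506719-43527244, minus strand) was 2.21-fold lower (log2 -1.14, SE 0.17, adjusted p = 0.0052). Its exons share 14.8% of their bases with ZNF575 on the opposite strand, whose own log2 fold change was -0.29 (adjusted p = 0.891).

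PGM1 and AXL were about 2-fold lower. PGM1, phosphoglucomutase, which links glycogen and galactose metabolism to glycolysis and supplies sugar phosphates for glycosylation, had 28.5, 28.8 and 20.3 CPM in QRICH1 KO DMSO and 51.2, 54.4 and 43.2 CPM in WT DMSO. PGM1 (chr1:63593276-63660245, plus strand) fell 1.92-fold (log2 -0.94, SE 0.17, adjusted p = 0.0296), and the call was lost without QRICH1 KO DMSO library 2 or 3, or without WT DMSO library 1 or 2. Exons of ITGB3BP on the opposite strand cover 4.68% of its exon bases, and that gene was not called (log2 -0.13, adjusted p = 0.859). AXL, a receptor tyrosine kinase for GAS6, had 18.5, 12.9 and 17.1 CPM in QRICH1 KO DMSO and 27.6, 27.4 and 33.0 CPM in WT DMSO. AXL (chr19:41219203-41261766, plus strand) fell 1.81-fold (log2 -0.86, SE 0.15, adjusted p = 0.0299), and it lost its call when either QRICH1 KO DMSO library 2 or any 1 of the WT DMSO libraries was left out.

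INPPL1 and CCDC106 were called at low levels. INPPL1 encodes SHIP2, an inositol phosphatase of phosphoinositide signalling, and had 3.17, 1.59 and 1.63 CPM in QRICH1 KO DMSO and 6.67, 9.20 and 6.33 CPM in WT DMSO. INPPL1 (chr11:72223701-72239105, plus strand) fell 3.45-fold (log2 -1.79, SE 0.31, adjusted p = 0.0252), a call that was lost without QRICH1 KO DMSO library 2 or without WT DMSO library 2. CCDC106, a coiled-coil protein gene, had 0.848, 0.970 and 0.626 CPM in QRICH1 KO DMSO and 3.67, 4.51 and 3.20 CPM in WT DMSO. CCDC106 (chr19:55641062-55653161, plus strand) fell 4.64-fold (log2 -2.21, SE 0.36, adjusted p = 0.0127), with no call without QRICH1 KO DMSO library 1 or without WT DMSO library 2. The exon bases it shares with ZNF580 and with ZNF581 make up 4.5% of its own in each case, and neither neighbour was called (log2 -0.13 for ZNF580 and -0.10 for ZNF581). TTC23 and MVP, the gene of the major vault protein, came next without a call: TTC23 had a log2 fold change of -1.11 (adjusted p = 0.0666) and MVP one of -0.82 (adjusted p = 0.0719), and MVP was called lower under Tm (log2 -0.84, adjusted p = 0.0201).

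**Figure D2:**
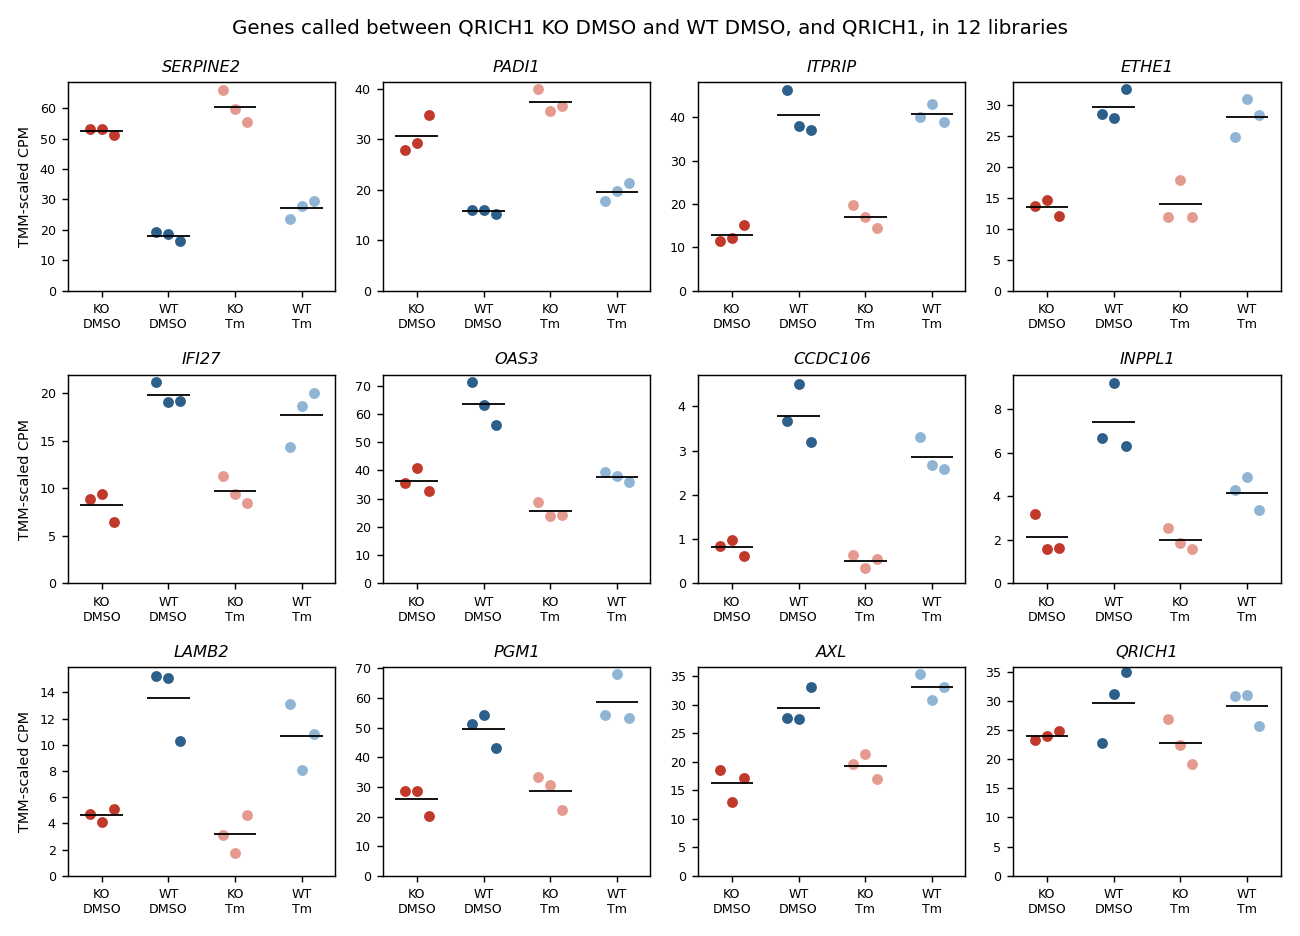
TMM-scaled CPM (y axis, from 0) in each of the 12 libraries for the 11 genes called in DMSO and for QRICH1, with groups on the x axis in the order QRICH1 KO DMSO, WT DMSO, QRICH1 KO Tm and WT Tm; dots are libraries and bars are means of 3. In all 11 called genes the QRICH1 KO and WT libraries do not overlap in DMSO or in Tm, whereas those of QRICH1 overlap in both.

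LAMB2, the gene of the laminin beta 2 chain of basement membranes, was the called gene closest to QRICH1, 26.8 kb away on the same strand of chromosome 3. It had 4.75, 4.09 and 5.07 CPM in QRICH1 KO DMSO and 15.2, 15.1 and 10.3 CPM in WT DMSO. The lowest WT library was more than 2-fold above every QRICH1 KO library. LAMB2 (chr3:49121114-49133118, minus strand) fell 2.9-fold (log2 -1.54, SE 0.27, adjusted p = 0.0252), and the call was lost without QRICH1 KO DMSO library 1 or 2, or without WT DMSO library 1 or 2. It was called again under Tm (log2 -1.71, adjusted p = 0.00519). No other gene of the region was called. Within 1 Mb of QRICH1 the table holds 62 genes, of which 44 were tested. Those next to QRICH1 did not pass the test: IMPDH2 had a log2 fold change of -0.13 (95% interval -0.40 to 0.14), QARS1 one of -0.18 (-0.38 to 0.03) and USP19 one of 0.26 (-0.24 to 0.77), of which QARS1 and USP19 lie between QRICH1 and LAMB2. The median over the 44 genes was 0.03. Chromosome medians ran between -0.07 on chromosome 13 and 0.11 on chromosome 19, apart from the mitochondrial genome at -0.26.

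Both remaining called genes, IFI27 and OAS3, belong to the interferon-stimulated genes. These genes are switched on when interferons activate a transcription factor complex that holds IRF9 and binds the interferon-stimulated response element (ISRE) in their promoters, and many of their products act against viral RNA or membranes. A search for the ISRE core, written as GAAANNGAAA or GAAANNNGAAA and read on both strands with overlaps allowed, found it in the 250 bases before the start of 16 of the 24 listed and tested genes with a promoter sequence (66.7%), against 358 of the 9260 tested genes with one (3.87%). Of the 11 called genes, IFI27 and OAS3 had a match. The promoters of these and of the next members by p, IFI44 and IFIT1, are shown from RefSeq on GRCh38.p14 so that the matches can be seen, 5′ to 3′ on the strand of the gene and ending at the base before its start, with the ISRE core matches in capitals. A TTTC run in capitals is a match on the opposite strand.
IFI27 promoter, chr14:94110486-94110735, plus strand: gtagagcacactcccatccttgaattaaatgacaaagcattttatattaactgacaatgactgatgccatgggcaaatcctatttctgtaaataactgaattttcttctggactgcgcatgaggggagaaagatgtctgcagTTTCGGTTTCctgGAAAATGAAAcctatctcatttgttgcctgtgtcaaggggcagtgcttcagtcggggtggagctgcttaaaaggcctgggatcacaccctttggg
OAS3 promoter, chr12:112938224-112938473, plus strand: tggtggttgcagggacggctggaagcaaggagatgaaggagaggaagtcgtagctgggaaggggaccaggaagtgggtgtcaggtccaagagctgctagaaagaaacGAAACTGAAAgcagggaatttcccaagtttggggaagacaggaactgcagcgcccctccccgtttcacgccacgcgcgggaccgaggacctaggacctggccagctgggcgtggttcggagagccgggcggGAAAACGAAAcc
IFIT1 promoter, chr10:89392373-89392622, plus strand: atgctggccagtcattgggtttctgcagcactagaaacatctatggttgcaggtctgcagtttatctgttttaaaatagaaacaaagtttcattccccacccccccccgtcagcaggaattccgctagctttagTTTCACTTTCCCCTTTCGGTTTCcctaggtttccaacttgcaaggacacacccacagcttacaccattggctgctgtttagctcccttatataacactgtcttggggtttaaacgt
IFI44 promoter, chr1:78649539-78649788, plus strand: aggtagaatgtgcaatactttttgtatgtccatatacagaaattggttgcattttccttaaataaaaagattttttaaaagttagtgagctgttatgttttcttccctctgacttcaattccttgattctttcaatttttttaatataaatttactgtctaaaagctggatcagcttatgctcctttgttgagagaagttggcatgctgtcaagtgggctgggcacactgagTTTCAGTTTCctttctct

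IFI27, a small membrane protein gene, had 8.87, 9.43 and 6.51 CPM in QRICH1 KO DMSO and 21.2, 19.1 and 19.2 CPM in WT DMSO. The genotypes were far apart and IFI27 (chr14:94104836-94116698, plus strand) fell 2.39-fold (log2 -1.26, SE 0.18, adjusted p = 0.0052). OAS3, an oligoadenylate synthetase, which activates RNase L on double-stranded RNA, had 35.7, 40.8 and 32.5 CPM in QRICH1 KO DMSO and 71.4, 63.1 and 56.1 CPM in WT DMSO. OAS3 (chr12:112938352-112973249, plus strand) fell 1.75-fold (log2 -0.80, SE 0.13, adjusted p = 0.0118), a call that was lost without WT DMSO library 1 or without WT DMSO library 2.

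Many listed interferon-stimulated genes lay on the same side. Of 39 listed genes 33 were tested, 2 were called lower (0.0795% of all genes were), none was called higher, and 27 had a log2 fold change below 0 (49.4% of all genes did). At an unadjusted p under 0.05, 14 were lower and none was higher (3.85% of all genes were lower). Their median log2 fold change was -0.44, against 0.004 for all genes. When QRICH1 KO DMSO library 3 was left out it was -0.41 with 3 called lower (13 of all 11483 genes tested were). IFI44 had 5.71, 5.89 and 6.94 CPM in QRICH1 KO DMSO and 11.8, 12.1 and 15 CPM in WT DMSO (log2 -1.08, adjusted p = 0.0666). IFIT1, which binds viral RNA that lacks a host cap, had 13.8, 7.42 and 9.82 CPM in QRICH1 KO DMSO and 20.1, 22.4 and 19.0 CPM in WT DMSO (log2 -0.98, adjusted p = 0.0776). In both, all QRICH1 KO libraries were below all WT libraries. IFI6 was 5.09, 4.16 and 3.75 CPM in QRICH1 KO DMSO and 9.25, 9.56 and 5.66 CPM in WT DMSO (log2 -0.90, adjusted p = 0.363).

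Not all members separated the genotypes in DMSO. Chosen after its values were seen, OASL had 29.8, 8.80 and 10.4 CPM in QRICH1 KO DMSO and 34.4, 35.1 and 20.0 CPM in WT DMSO, where QRICH1 KO library 1 lay inside the WT range. ISG15, a ubiquitin-like protein gene chosen in the same way, had a log2 fold change of -0.26 in DMSO (adjusted p = 0.618) and was called lower under Tm (log2 -0.75, adjusted p = 0.0199). Under Tm, 6 of the 33 were called lower (0.76% of all genes were) and the median was -0.75, with 30 below 0 (48.5% of all genes were). Of 16 tested genes of MHC class I antigen presentation, many of which interferon also raises, none was called in DMSO and the median was 0.05. HLA-C had 73.4, 73.5 and 73.2 CPM in QRICH1 KO DMSO and 51.6, 56.9 and 57.7 CPM in WT DMSO (log2 0.40, adjusted p = 0.296). HLA genes are near-identical to one another, so the split of reads among them is uncertain.

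**Figure D3:**
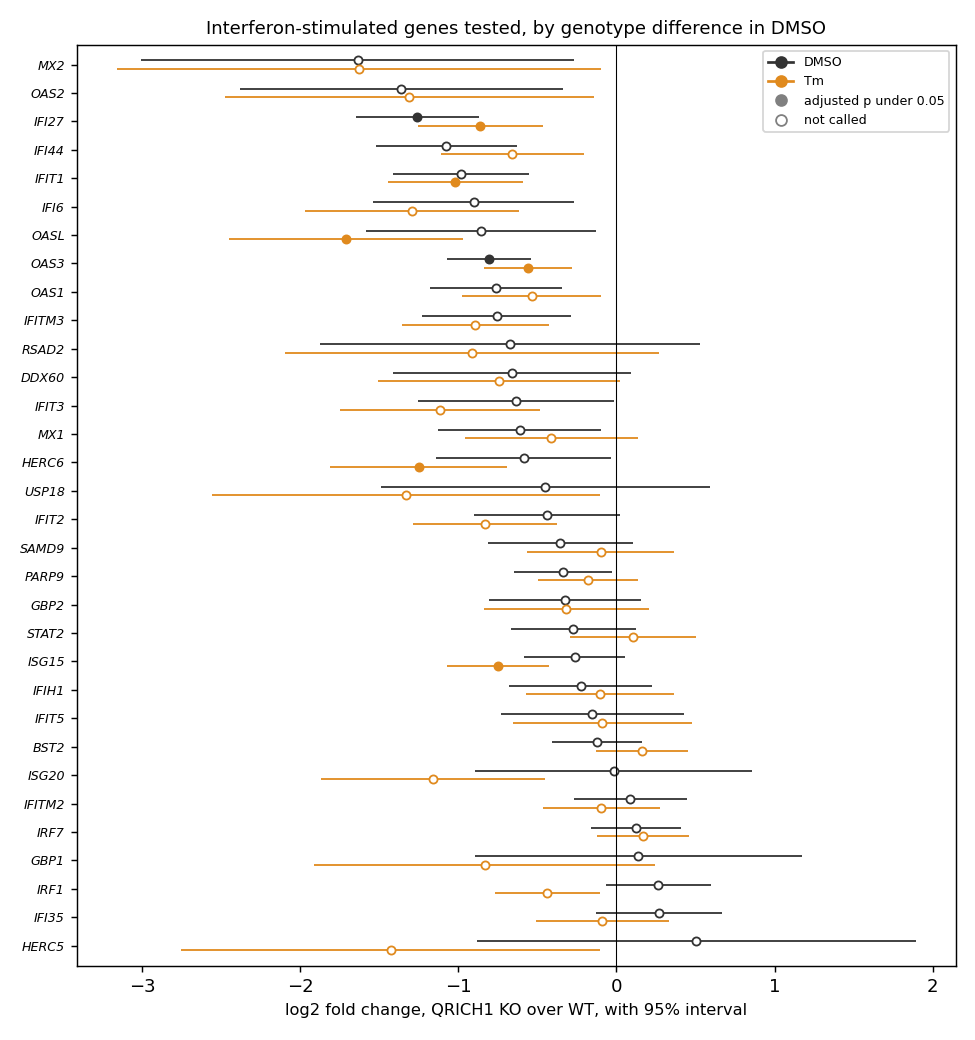
Log2 fold change of QRICH1 KO over WT (x axis) with its 95% interval for 32 of the 33 interferon-stimulated genes tested, 1 per row, in DMSO (dark) and in Tm (orange); filled dots have an adjusted p under 0.05. In DMSO most of the rows lie below 0 and only IFI27 and OAS3 are filled.

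Genes of the ER stress response did not differ by genotype at a size that the test could call. HSPA5, the ER chaperone BiP, averaged 1127 ± 65.8 CPM in QRICH1 KO DMSO and 1081 ± 116 CPM in WT DMSO (SD, n = 3 each), a log2 fold change of 0.06 with a 95% interval of -0.20 to 0.32. HSP90B1, the chaperone GRP94, had 725, 709 and 679 CPM in QRICH1 KO DMSO and 702, 630 and 715 CPM in WT DMSO (0.05, -0.17 to 0.26). The same 2 genes were called lower in QRICH1 KO under Tm (log2 -0.76 for HSPA5, adjusted p = 0.00484, and -0.77 for HSP90B1, adjusted p = 0.00193). Among 26 ER chaperones and disulfide isomerases none was called in DMSO by edgeR, DESeq2 or limma-voom, 4 had an unadjusted p under 0.05, all higher (5.22% of all genes were), and the median was 0.09. These 4 were SDF2L1 (log2 0.47, adjusted p = 0.345), CRELD2 (0.48, adjusted p = 0.291), MANF (0.55, adjusted p = 0.419) and DNAJB11 (0.36, adjusted p = 0.449), which act in folding or are secreted under ER stress. SDF2L1 had 14.0, 14.1 and 13.3 CPM in QRICH1 KO DMSO and 9.93, 11.2 and 8.71 CPM in WT DMSO, and was called lower under Tm (log2 -0.59, adjusted p = 0.0278). The median of the list under Tm was -0.60.

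The PERK and ATF4 arm leaned to the higher side without a call. Of 26 tested targets of ATF4 and CHOP none was called by edgeR or limma-voom and 1 was by DESeq2, as higher (25 of all 11323 genes were). In edgeR, 8 were higher at an unadjusted p under 0.05 (5.22% of all genes were), 1 was lower, 23 lay above 0 (50.6% of all genes did) and the median was 0.24. SESN2, a stress-induced brake on the growth kinase mTORC1, had 13.5, 11.2 and 15 CPM in QRICH1 KO DMSO and 7.21, 8.71 and 7.89 CPM in WT DMSO (log2 0.73, SE 0.15, adjusted p = 0.0719). TRIB3, a pseudokinase that ATF4 and CHOP induce, had 53.1, 58.4 and 50.2 CPM in QRICH1 KO DMSO and 33.3, 29.2 and 50.8 CPM in WT DMSO, so that WT library 3 was as high as the QRICH1 KO libraries (log2 0.51, adjusted p = 0.345). The amino acid transporter genes SLC7A5 (log2 0.40, adjusted p = 0.351) and SLC7A11 (log2 0.48, adjusted p = 0.458) and the glutathione-degrading CHAC1 (log2 0.92, adjusted p = 0.439) were likewise above 0 without a call. ATF4 itself had 272, 259 and 219 CPM in QRICH1 KO DMSO and 235, 217 and 200 CPM in WT DMSO (log2 0.20, adjusted p = 0.632). DDIT3 had 5.03, 4.23 and 3.25 CPM in QRICH1 KO DMSO and 3.67, 2.92 and 3.2 CPM in WT DMSO (log2 0.38, adjusted p = 0.585). Both factors had overlapping libraries, as did ATF3, a further stress-induced factor (log2 0.35, adjusted p = 0.771). The asparagine synthetase gene ASNS lay at 0.139 to 0.375 CPM in QRICH1 KO DMSO and 0.0744 to 0.272 CPM in WT DMSO, near the floor of these libraries. Under Tm the same 26 targets had a median of -0.27 and 24 lay below 0 (48.5% of all genes did). For SESN2 the Tm difference less the DMSO difference was -1.09 on the log2 scale (SE 0.19, adjusted p = 0.0721), which did not pass the test.

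The other ER lists showed no call in DMSO and medians close to 0. The median was 0.01 for 28 genes of ER-associated degradation, -0.01 for 16 stress sensors and their factors, 0.02 for 25 genes of ER translocation, 0.03 for 35 of N-glycosylation and -0.05 for 42 of ER-Golgi transport. SYVN1, the ubiquitin ligase HRD1, had a log2 fold change of 0.54 (adjusted p = 0.453). XBP1 had 60.1, 49.8 and 34.4 CPM in QRICH1 KO DMSO and 36.9, 38.5 and 39.1 CPM in WT DMSO (log2 0.33, adjusted p = 0.536), with QRICH1 KO library 3 below every WT library, and counts per gene do not show its splicing. The 95% interval lay within 2-fold for 22 of the 26 chaperone genes and for all 28 genes of ER-associated degradation.

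**Figure D4:**
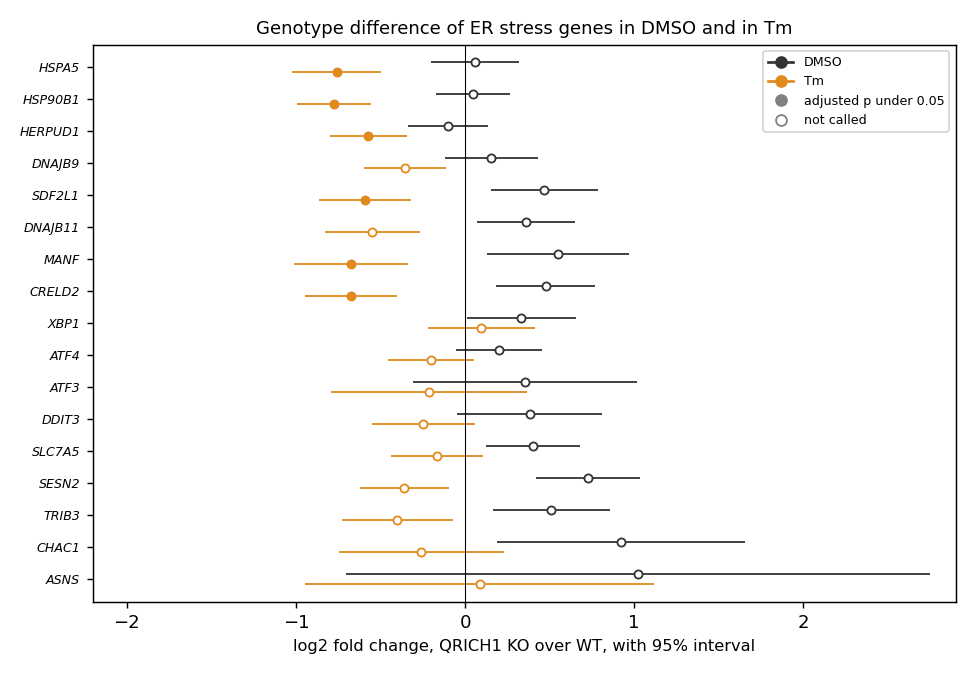
Log2 fold change of QRICH1 KO over WT (x axis) with its 95% interval for 17 ER stress genes, 1 per row, in DMSO (dark) and in Tm (orange); filled dots have an adjusted p under 0.05. No dark dot is filled, HSPA5 and HSP90B1 lie at 0.06 and 0.05 in DMSO, and HSPA5, HSP90B1, HERPUD1, SDF2L1, MANF and CRELD2 are filled below 0 in Tm.

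The number of calls depended on QRICH1 KO DMSO library 3. Without library 3, 26 genes were called higher and 13 lower, among them 10 of the 11 genes called with all libraries. The remaining 29 comprised 24 higher and 5 lower. In 23 of these 24 the level in library 3 was below both other QRICH1 KO libraries, and in 12 it did not exceed every WT library. These counts follow in part from the choice of the genes, which became calls when library 3 was left out, and are a description only. RAC1, a small GTPase of the actin cytoskeleton, had 141, 121 and 47.7 CPM in QRICH1 KO DMSO and 29.4, 36.8 and 55.2 CPM in WT DMSO. Its log2 fold change was 1.34 with all libraries (adjusted p = 0.0864) and 1.68 without library 3 (adjusted p = 0.000368). COTL1, which encodes the actin-binding coactosin-like protein and was chosen after its values were seen, had 1285, 1304 and 335 CPM in QRICH1 KO DMSO and 94.3, 186 and 390 CPM in WT DMSO. Its log2 fold change was 2.12 with all libraries (adjusted p = 0.14) and 2.53 without library 3 (adjusted p = 0.0267). GCLM, the regulatory subunit of the enzyme that starts glutathione synthesis, had 37.2, 27.8 and 10.2 CPM in QRICH1 KO DMSO and 5.44, 7.79 and 17.9 CPM in WT DMSO. In each of these 3 genes WT library 3 was the highest WT library and QRICH1 KO library 3 the lowest QRICH1 KO library, and QRICH1 KO library 3 lay below WT library 3. Under Tm, RAC1 (log2 1.32, adjusted p = 0.033) and COTL1 (log2 2.31, adjusted p = 0.0412) were called higher, and they were the 2 of the 24 that were. The part that library 3 plays in these differences was not tested beyond leaving it out.

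**Figure D5:**
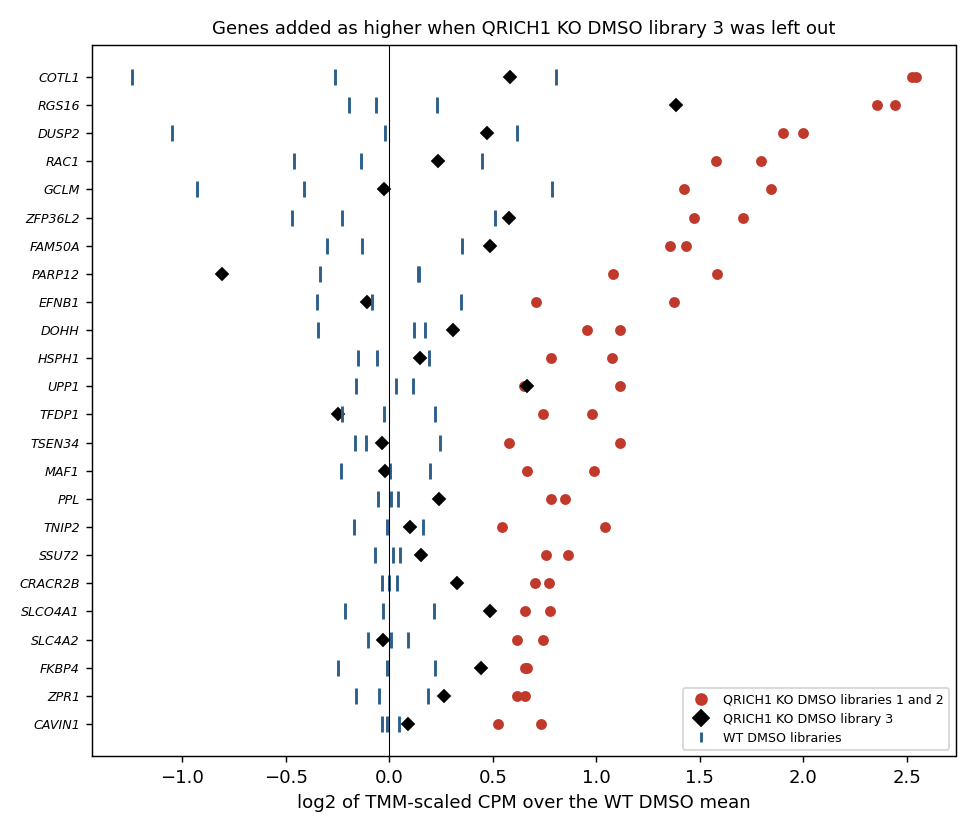
The 24 genes added as higher when QRICH1 KO DMSO library 3 was left out, 1 per row, with the log2 of TMM-scaled CPM over the WT DMSO mean on the x axis; red dots are QRICH1 KO DMSO libraries 1 and 2, black diamonds library 3 and blue ticks the WT DMSO libraries. In 23 genes the diamond lies left of both red dots, and in 12 it does not pass the highest WT tick.

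Heat shock genes lay mostly above 0 without a call. Of 24 tested heat shock and cytosolic chaperone genes none was called by edgeR with all libraries or by limma-voom. DESeq2 called 2, both as higher (25 of all 11323 genes were). In edgeR, 8 were higher at an unadjusted p under 0.05 (5.22% of all genes were) and none was lower, 20 lay above 0 (50.6% of all genes did) and the median was 0.14. HSPH1, an exchange factor for HSP70, had 1426, 1162 and 750 CPM in QRICH1 KO DMSO and 649, 610 and 772 CPM in WT DMSO (log2 0.72, adjusted p = 0.137), with library 3 inside the WT range. HSPB1, a small heat shock protein, had a log2 fold change of 0.44 (adjusted p = 0.39). HSPA1B had one of 0.38 (adjusted p = 0.364), with the limit that its reads are shared with the near-identical HSPA1A. Without QRICH1 KO DMSO library 3, FKBP4 and HSPH1 were called higher (26 of all 11483 genes tested were) and the median was 0.21.

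All 13 mitochondrially encoded genes had a log2 fold change below 0 (49.4% of all genes did), with a median of -0.26, but none had an unadjusted p under 0.05 and none was called by edgeR, DESeq2 or limma-voom. MT-CO2, a subunit of cytochrome oxidase, had 5709, 4654 and 7337 CPM in QRICH1 KO DMSO and 7401, 6516 and 8575 CPM in WT DMSO (log2 -0.35, adjusted p = 0.577), and the genotypes overlapped. The share of mitochondrial reads was 2.06% to 3.10% in QRICH1 KO DMSO and 2.77% to 3.69% in WT DMSO. Without QRICH1 KO DMSO library 3 the median was -0.37 and 5 of the 13 were lower at an unadjusted p under 0.05, as 6.48% of all genes were in that fit. Under Tm the median was 0.14. Of the nuclear genes of oxidative phosphorylation none of 54 was called by edgeR, their median was -0.05, and the complex I subunit gene NDUFA5 had the lowest p of those named, with 35.0, 34.2 and 39.7 CPM in QRICH1 KO DMSO and 43.8, 60.5 and 63.5 CPM in WT DMSO (log2 -0.63, adjusted p = 0.128).

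Oxidative stress, lysosomal and metabolic lists gave single members with a similar spread. Of 23 tested NRF2 targets and glutathione genes none was called, 6 were higher at an unadjusted p under 0.05 (5.22% of all genes were) and the median was 0.06. Without QRICH1 KO DMSO library 3, 1 member, GCLM, was called higher (26 of all 11483 genes tested were). The ferritin heavy chain gene FTH1 had 1087, 963 and 635 CPM in QRICH1 KO DMSO and 593, 972 and 572 CPM in WT DMSO (log2 0.33, adjusted p = 0.649), where the genotypes overlapped. LAMP1, a glycoprotein of the lysosomal membrane, had 13.3, 9.7 and 7.13 CPM in QRICH1 KO DMSO and 4.76, 5.12 and 6.03 CPM in WT DMSO (log2 0.92, adjusted p = 0.267), whereas LAMP2, a second one, had a log2 fold change of -0.43 (adjusted p = 0.539). Their list of 36 autophagy and lysosome genes had a median of 0.04, and that of 32 genes of glycolysis and the response to hypoxia 0.05. Of 16 histone genes 13 lay above 0 (50.6% of all genes did) and 1 had an unadjusted p under 0.05, with a median of 0.16, and their median was 0.33 without QRICH1 KO DMSO library 3.

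The death receptor TNFRSF1A and the pro-apoptotic BAX lay on opposite sides. TNFRSF1A, a receptor for tumour necrosis factor, had 21.8, 26 and 22.8 CPM in QRICH1 KO DMSO and 29, 32.1 and 36.5 CPM in WT DMSO (log2 -0.47, adjusted p = 0.345). BAX, which permeabilises the outer mitochondrial membrane, had 20.5, 19.1 and 19.7 CPM in QRICH1 KO DMSO and 12.5, 14.6 and 17.3 CPM in WT DMSO (log2 0.41, adjusted p = 0.483). Neither was called. In both the genotypes did not overlap, which was so for 13.5% of all genes (7.4% with QRICH1 KO higher and 6.09% with it lower). CD44, a hyaluronan receptor and WNT target, had 74.9, 97.3 and 99 CPM in QRICH1 KO DMSO and 112, 116 and 117 CPM in WT DMSO (log2 -0.35, adjusted p = 0.449).

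Lists of epithelial identity, stem cell markers and extracellular matrix held some genes with separated libraries (13.5% of all genes had them), whereas the libraries of AGR2 overlapped. SPDEF, a transcription factor of goblet and Paneth cells, had 21.1, 22.8 and 20.5 CPM in QRICH1 KO DMSO and 33.9, 38.7 and 29.5 CPM in WT DMSO. It was not called in DMSO by edgeR (log2 -0.67, adjusted p = 0.118) and was called lower under Tm (log2 -0.71, adjusted p = 0.0271). AGR2, a disulfide isomerase of secretory cells, had 76.6, 65.8 and 58.0 CPM in QRICH1 KO DMSO and 61.0, 60.4 and 79.6 CPM in WT DMSO (log2 -0.01, 95% interval -0.29 to 0.28), and was called lower under Tm (log2 -0.75, adjusted p = 0.00681). PROM1, the gene of the membrane protein CD133, had 15.4, 16.4 and 22.6 CPM in QRICH1 KO DMSO and 30.9, 27.6 and 29.3 CPM in WT DMSO (log2 -0.69, adjusted p = 0.212), and it too was called lower under Tm (log2 -0.90, adjusted p = 0.017). TGFBI, an extracellular matrix protein gene, had 162, 137 and 139 CPM in QRICH1 KO DMSO and 96.1, 109 and 102 CPM in WT DMSO (log2 0.51, adjusted p = 0.132), and was called higher under Tm (log2 0.70, adjusted p = 0.00774). The villin gene VIL1, of the microvillus core, had a log2 fold change of -0.29 (adjusted p = 0.458) and the keratin gene KRT20 one of 0.34 (adjusted p = 0.516). Over the 32 lists, 31 had no call in edgeR. Outside the interferon list DESeq2 called 5 members higher and 2 lower (25 and 36 of all 11323 genes) and limma-voom called none. The 2 lower were 1 of 11 secretory cell markers and 1 of 54 nuclear genes of oxidative phosphorylation. The list medians outside the interferon list ran from -0.26 to 0.24 in edgeR.

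Lists of housekeeping and growth held no call. Of 80 cytosolic ribosomal protein genes none was called and none had an unadjusted p under 0.05, with a median of -0.05 and log2 fold changes between -0.28 and 0.39. The median was 0.04 for 40 translation factors, 0.07 for 38 genes of DNA replication and S phase, 0.02 for 34 of G2 and mitosis, 0.04 for 31 of cholesterol and fatty acid synthesis, 0.04 for 22 p53 targets and 0.05 for 27 apoptosis regulators. E2F1, a transcription factor that drives S phase entry, had 21.1, 19.8 and 22.0 CPM in QRICH1 KO DMSO and 12.5, 17.9 and 13.8 CPM in WT DMSO (log2 0.50, adjusted p = 0.352), and was called higher under Tm (log2 1.004, adjusted p = 0.00828).

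The genotype difference was also measured in the 6 Tm libraries, none of which enters the group means of the DMSO contrast. They did enter the fit of all 12 libraries, which set the gene filter and the spread behind the DMSO p-values. The calls of the comparisons were therefore not independent. A fit to the 6 DMSO libraries alone kept 6 of the 11 calls. In the Tm comparison, from the fit of all 12 libraries, 46 genes were higher (0.406%) and 86 lower (0.76%) in QRICH1 KO, 1.17% in all. At an unadjusted p under 0.05, 6.78% were higher and 6.58% lower (13.4% in all), and 51.5% of all genes had a log2 fold change above 0. All 11 genes called in DMSO had the same direction under Tm with no overlap between the genotypes (9.41% of all genes did not overlap with QRICH1 KO higher and 9.06% with it lower, 18.5% in all), and 10 of them were called. The exception was INPPL1, at 2.54, 1.87 and 1.59 CPM in QRICH1 KO Tm and 4.29, 4.88 and 3.34 CPM in WT Tm (log2 -1.07, adjusted p = 0.151). SERPINE2 had 66.0, 59.8 and 55.5 CPM in QRICH1 KO Tm and 23.7, 27.8 and 29.6 CPM in WT Tm (log2 1.17, adjusted p = 0.000271). PADI1 had 40.1, 35.6 and 36.7 CPM in QRICH1 KO Tm and 17.7, 19.8 and 21.3 CPM in WT Tm (log2 0.94, adjusted p = 0.00252). ITPRIP had 19.7, 17.0 and 14.4 CPM in QRICH1 KO Tm and 40.1, 43.0 and 38.9 CPM in WT Tm (log2 -1.26, adjusted p = 0.000849). In ETHE1, the level was 12, 17.9 and 11.9 CPM in QRICH1 KO Tm and 24.8, 31 and 28.4 CPM in WT Tm (log2 -1.02, adjusted p = 0.00494). LAMB2 had 3.09, 1.76 and 4.61 CPM in QRICH1 KO Tm and 13.1, 8.05 and 10.8 CPM in WT Tm. The difference of the remaining called genes was -0.86 for IFI27, -0.56 for OAS3, -2.42 for CCDC106, -1.03 for PGM1 and -0.78 for AXL on the log2 scale. These genes showed their genotype difference again in separate libraries, which carry the same guides, so the recurrence does not separate the guide or line from the genotype.

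Beyond the called genes the recurrence was partial. Of the 1016 genes with an unadjusted p under 0.05 in DMSO that were not called, 741 (72.9%) had the same sign under Tm, against 56.1% of the 10296 genes with a larger p. Read from the other side, 99 of the 132 genes called under Tm (75%) had the same sign in DMSO, and 10 were called there. The difference between the comparisons was tested as the genotype difference under Tm less that in DMSO. No gene passed in edgeR (0% of 11323) or in limma-voom, 774 had an unadjusted p under 0.05 in edgeR (6.84%), and DESeq2 called 42. Among the 11 genes called in DMSO the adjusted p of this difference lay between 0.727 and 0.991.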

How the data were processed

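Per the labels' protocols, RNA from lysed cells was made into libraries by a modified Smart-seq2 protocol with Nextera XT and sequenced on a NextSeq 500. The authors deposited 1 table of raw counts per gene. The build hg38 and the tools STAR, Trimmomatic and DESeq2 are listed, without roles, per the submitters' processing notes. How reads were counted, with which strand setting and annotation, is not given in the sources used here. Of the gene IDs in the table, 19972 matched GENCODE 29, which gave coordinates. The members and gene lists were chosen with earlier results of these data known.

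Counts of 12 libraries (6856736 to 17861844 each) were fitted with 4 group means in edgeR 4.0.16 after TMM scaling and filterByExpr at a minimum count of 10. This left 11323 of 20015 genes. Quasi-likelihood p-values were adjusted by Benjamini-Hochberg, and 95% intervals came from the same fit. Every adjusted p in the text is from this fit unless DESeq2 (1.42.0) or limma-voom (3.58.1) is named. The script was tested on simulated data, with changes set in genes at a mean of at least 5 CPM in DMSO. It called 12% of 50 genes given a log2 change of 0.5 and 84% of 50 given a change of 1. Real differences of these sizes could therefore go without a call. Per the series' design the replicates are biological, and p-values measure only the spread between these libraries.

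Genes named in the text are QRICH1, an ER stress panel, all called genes, the genes with the smallest p (mean of at least 5 CPM) to make 10 in each direction, up to 4 members of each list by size of change at that level, and called neighbours of QRICH1. Exceptions are marked as chosen after their values were seen, and genes that overlap a called gene or lie next to QRICH1 are named for their position. Promoters came from RefSeq tables (GRCh38.p14). Alternatives were other scalings, filters and tools, a fold threshold, a replicate block and left-out libraries. One interferon-stimulated gene that is in the counts is not reported here.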

Additional observations from a re-analysis of the deposited data

Results flagged for a closer look

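QRICH1 KO DMSO library 3 had a count for 14342 genes after all libraries were thinned to 6856736 counts, against 13147 and 13364 in QRICH1 KO DMSO libraries 1 and 2 and 13069 to 13456 in WT DMSO. The library is listed because its number of genes detected was above that of every other DMSO library. Unthinned, it had counts for 15340 genes, against 13574 to 14094 in the other DMSO libraries. It alone had counts for 751 genes among the DMSO libraries, which together made up 107 CPM, against 164 to 246 such genes in each of the others. QRICH1 KO Tm library 3 had counts for 14065 genes after thinning, against 12932 to 13124 in the other Tm libraries. The source of these counts was not tested.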

How the results depend on the processing

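SERPINE2, PADI1, ITPRIP, IFI27 and ETHE1 were called under all 18 alternatives, and no called gene changed direction. In 17 or 18 alternatives each, PGM1 and AXL lost their call in 7, LAMB2 in 6, OAS3 and CCDC106 in 5 and INPPL1 in 4. Against 2 genes higher and 9 lower in DMSO, the filter on low counts mattered most: without it 76 were higher and 62 lower, with 126 and 153 under Tm, 44 for the difference between the comparisons and 54 called the same way in both. DESeq2 called 25 higher and 36 lower, all 11 included, 90 and 199 under Tm, 42 for the difference and 25 in both. A fit to the 6 DMSO libraries called 4 lower, and a test against a fold of 1.2 called 5 lower, 10 higher and 14 lower under Tm, and 5 in both. Without both QRICH1 KO libraries 3, 40 were higher, 19 lower and 22 called in both. An alternative chosen after seeing the data, without QRICH1 KO DMSO library 3 and WT DMSO library 1, called 12 higher in DMSO and 71 higher under Tm, and kept 5 of the 11. The cause of these shifts was not tested. Leaving out each library in turn gave 2 to 26 higher in DMSO (26 without QRICH1 KO library 3), 3 to 13 lower (3 without WT library 2), 29 to 59 higher and 62 to 102 lower under Tm, 5 to 13 in both and 0 to 4 for the difference. Deviations from the group mean had correlations of 0.11, -0.005 and 0.122 between same-numbered DMSO libraries of the genotypes. Between differently numbered ones they ran from -0.15 to 0.052. These values do not settle whether the numbers mark pairs, and the main fit did not take them as such. With a replicate block 4 were higher and 13 lower, the 11 included. Genes at a few counts could not be resolved at this depth.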
